A study of Arabidopsis thaliana with 16 samples.

Results

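AT2G35490 is a nuclear gene of Arabidopsis thaliana for a plastid lipid-associated protein of the fibrillin family. It was chosen as the gene that stands alone in the platform annotation of 1 array probe, probe 2349, out of 691 genes with a probe of their own among 3439 probes. It was selected on its measured values, a lower level in ppi2 than in WT already known from these samples, so those values are a description and carry no test. The RNA came from 8 samples of the ppi2 mutant and 8 samples of the wild type (WT), both of the ecotype Wassilevskija. The ppi2 mutant is impaired in bringing precursor proteins into its chloroplasts. It lacks Toc159, a receptor on the outer chloroplast envelope, and its seedlings are known to be albino. No probe of the annotation lists Toc159 (AT4G02510), so its level gave no check of the labels. No agent, transgene, age or tissue is named in the labels.

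Fibrillins, also called plastoglobulins, are made in the cytosol and imported into plastids. Several of them coat plastoglobules, the lipid droplets attached to thylakoid membranes that store tocopherol, plastoquinone and carotenoid derivatives. The family takes its name from the pigment-bearing fibrils of pepper chromoplasts, and in leaves fibrillins are known for a part in tolerance of strong light and other stress.

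AT2G35490 was lower in every ppi2 sample than in any WT sample. The authors' deposited intensities end at 100 in every sample and were treated as linear, but how they were scaled is not given. In these intensities the values in ppi2 samples 1 to 8 were 0.117, 0.106, 0.208, 0.160, 0.118, 0.143, 0.143 and 0.103. In WT samples 1 to 8 they were 0.445, 0.447, 0.676, 0.631, 0.511, 0.557, 0.496 and 0.527. The lowest WT sample was 2.14 times the highest ppi2 sample, and no sample was at 0. Nor was any sample at the floor set after normalization, the 5th percentile of positive values. After quantile normalization, which gives all samples the same distribution of intensities, the ppi2 samples 1 to 8 had 0.0977, 0.0868, 0.157, 0.126, 0.0946, 0.115, 0.172 and 0.131. The WT samples 1 to 8 had 0.511, 0.518, 0.584, 0.552, 1.08, 1.13, 1.33 and 1.37 on that scale. The samples of the genotypes did not overlap on either scale, and normalization placed WT samples 5 to 8 above WT samples 1 to 4. With consecutive samples averaged into 4 pairs per genotype, 31.7% of the 691 genes had normalized levels that did not overlap between ppi2 and WT.

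**Figure D1:**
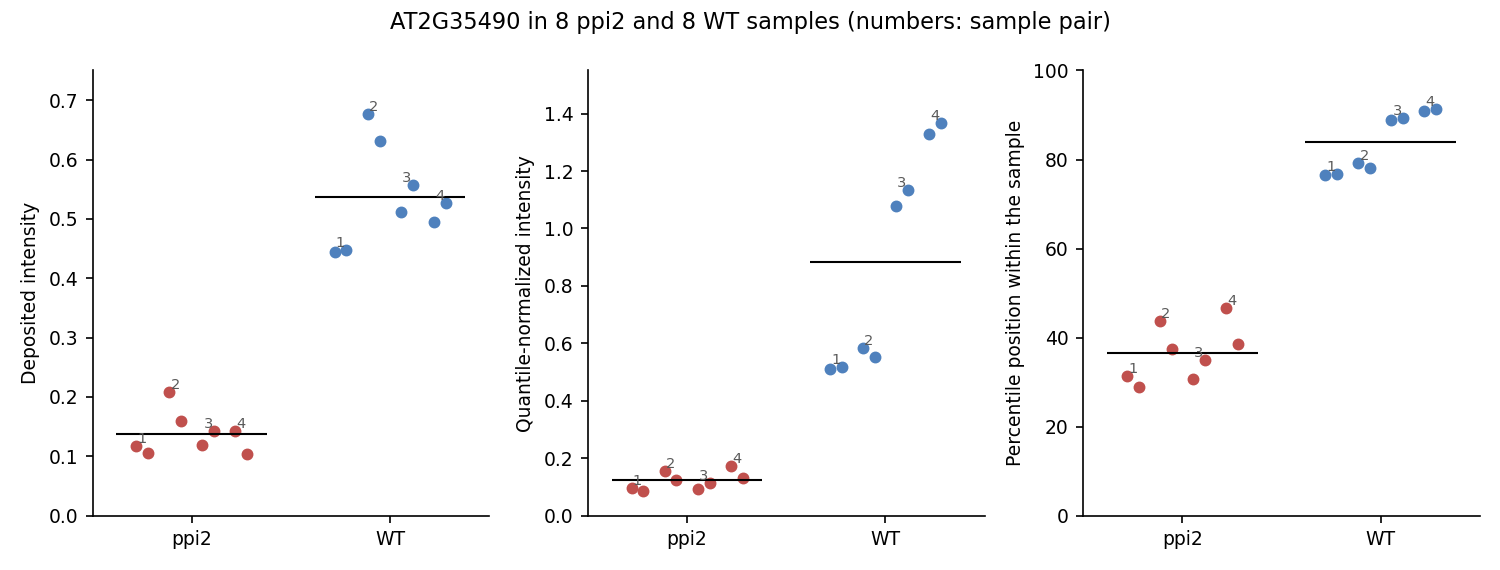
Each point is the value of AT2G35490 in 1 sample, with ppi2 left of WT, as deposited intensity, as quantile-normalized intensity and as percentile position among the 3439 probes of its own sample. The numbers mark the sample pair and the line is the mean of 8 samples. The ppi2 samples lie at 0.103 to 0.208 and the WT samples at 0.445 to 0.676 in the deposited values, and WT pairs 3 and 4 stand above WT pairs 1 and 2 only in the other panels.

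Among the samples of its own genotype, each sample correlated best with its consecutively numbered partner, so pairs were averaged and counted as 1 replicate (n = 4 per genotype). The labels do not say what a pair is or whether pairs are separate plants, so all errors and p-values cover only the spread between these samples. The log2 normalized level of AT2G35490 averaged -3.07 ± 0.34 in ppi2 and -0.30 ± 0.69 in WT (SD, n = 4 pairs each). The difference, ppi2 minus WT, was -2.77 ± 0.37 (SE), a level 6.81-fold lower in ppi2. This was the eighth largest decrease among the 691 named genes, and 65 of all 3439 probes had a decrease at least as large. In bulk RNA, fewer cells that use the gene and less of its RNA per cell cannot be told apart.

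After normalization the pairs differed more within WT than within ppi2, whereas the log2 deposited values had an SD over pairs of 0.31 in ppi2 and 0.23 in WT. On the normalized log2 scale ppi2 pairs 1 to 4 were at -3.44, -2.83, -3.26 and -2.73, against -0.96, -0.82, 0.14 and 0.43 in WT pairs 1 to 4. WT pairs 3 and 4 were thus 2.26-fold above WT pairs 1 and 2. In the deposited values the same contrast was 0.968-fold, with WT pairs 1 to 4 at 0.446, 0.653, 0.534 and 0.511. The deposited median of all probes was at 0.168 to 0.269 in the ppi2 samples and at 0.0976 to 0.212 in the WT samples, and the lowest medians belonged to WT pairs 3 and 4. The part of these medians in the size of the difference was not tested. The WT pairs were also split after their values were seen, so the folds from that split are descriptions. Against WT pairs 1 and 2 alone AT2G35490 was 4.53-fold lower in ppi2, and against WT pairs 3 and 4 alone it was 10.2-fold lower. In the deposited values it was 3.97-fold lower. Relative to the median of the log2 differences of all probes, which was 0.30 (higher in ppi2), it was 4.88-fold lower.

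The position of the probe among all probes of its own sample needs no scaling between samples. AT2G35490 stood at the 36.6 ± 5.94 percentile in ppi2 and at the 83.8 ± 7.31 percentile in WT (SD, n = 4 pairs each). The samples ranged between 29.0 and 46.6 in ppi2 and between 76.5 and 91.3 in WT. The order of the genotypes was therefore the same as on the intensity scales. Quantile normalization uses the same ranks, so this is no separate check of the normalized values. The 2 samples of a pair agreed less closely in ppi2, where they were 0.17 to 0.39 apart on the log2 scale, than in WT, where they were 0.02 to 0.08 apart. The ppi2 signal was also the dimmer one.

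**Figure D2:**
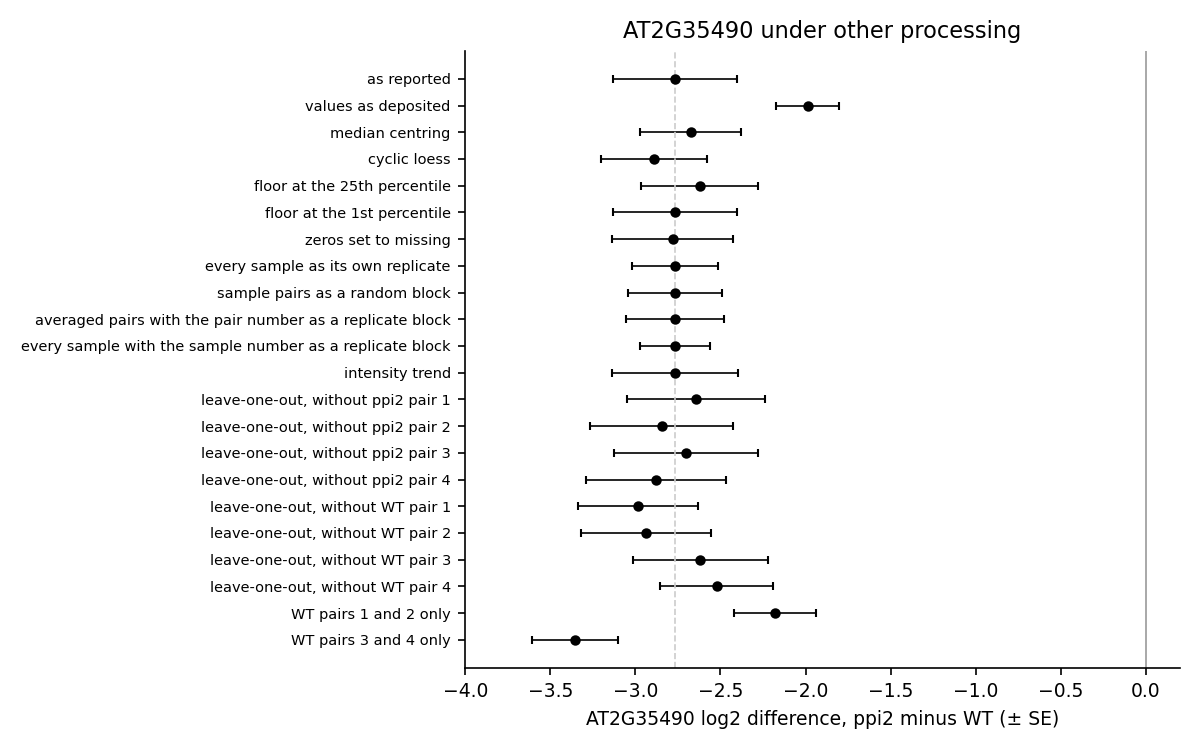
The points give the log2 difference of AT2G35490, ppi2 minus WT, with its SE, as reported and under 21 other ways of processing. All lie below 0, between -3.35 (against WT pairs 3 and 4 alone) and -1.99 (values as deposited), and the 8 fits that leave out 1 pair lie between -2.99 and -2.52.

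A second probe lists AT2G35490 together with 3 other fibrillin genes, and its signal cannot be assigned to any of them. These are AT4G04020 and AT4G22240, known as fibrillins 1a and 1b, and AT5G09820. This probe, 1796, had normalized intensities of 0.736, 0.563, 0.746 and 0.748 in ppi2 pairs 1 to 4. In WT pairs 1 to 4 it had 0.720, 0.643, 0.753 and 0.958. The genotypes overlapped, and the difference of -0.13 ± 0.15 (SE, 95% interval -0.50 to 0.23) did not pass the test (limma adjusted p = 0.572). The shared probe thus did not show the low ppi2 values of probe 2349, which is assigned to AT2G35490 alone. Its sign turned with the scaling: the difference was 0.83 in the deposited values (limma adjusted p = 0.0609) and 0.14 after median centring. Which of the 4 transcripts the shared probe mostly measured was not tested.

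Of the 13 other fibrillin genes, 4 had a probe of their own, and by limma 0 were called higher, 0 were called lower and 4 were not called, with 0 at an unadjusted p under 0.05. Of the 691 named genes 28.1% passed, 15.9% higher and 12.2% lower in ppi2, and of all 3439 probes 28.6% passed. The median log2 difference was -0.43 in the 4 fibrillins and 0 in the 691 genes. The list was drawn up by locus from general knowledge of the family, with earlier results of these data known, and the RefSeq table gives these 4 loci no symbol. AT2G46910, a fibrillin found in plastoglobules, averaged a normalized intensity of 0.336 in ppi2 and 0.546 in WT (log2 difference -0.70, 95% interval -1.48 to 0.08). Its ppi2 pairs were at 0.377, 0.329, 0.465 and 0.222, against 0.398, 0.424, 0.609 and 0.869 in the WT pairs, so the genotypes overlapped. AT5G09820, which also appears on the shared probe, had its own probe at 0.135 in ppi2 and 0.158 in WT (-0.23, 95% interval -0.52 to 0.06). AT5G19940 differed by -0.62 (95% interval -1.68 to 0.44) and AT1G51110 by -0.10 (95% interval -0.74 to 0.54). In the deposited values all 4 differences had the opposite sign, at 0.11 to 0.27, and after cyclic loess AT1G51110 was at 0.27. No common direction of the other fibrillins can be read from these data. AT5G09820 passed after median centring (-0.42, limma adjusted p = 0.0341), and AT2G46910 passed with every sample as its own replicate (limma adjusted p = 0.0282).

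Other fibrillins were measured only by shared probes. The probe of AT3G58010 (PGL34, a plastoglobulin) and AT2G42130 differed by -1.005 ± 0.36 (SE, limma adjusted p = 0.0838), with 3 of 8 ppi2 samples at the floor. A further probe for the same 2 genes was at the floor in 15 of 16 samples. The probe of AT3G26080 and AT3G26070 differed by 0.44 ± 0.31 (limma adjusted p = 0.341), and the probe shared by AT4G22240, AT4G04020 and AT2G46910 was at the floor in all 16 samples.

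Among the 20 other plastoglobule proteins listed, 4 were measured: 1 rose, 0 fell and 3 did not pass, where 28.1% of the 691 genes passed in either direction. The gene that rose was AT3G27110, a metallopeptidase of the M48 family that resides in plastoglobules and is known from leaf senescence. Its normalized intensity was 0.725, 0.671, 0.678 and 0.832 in ppi2 pairs 1 to 4 and 0.197, 0.112, 0.0599 and 0.158 in WT pairs 1 to 4. Every ppi2 pair lay above every WT pair, and the gene was 6.02-fold higher in ppi2 (log2 difference 2.59 ± 0.36 SE, limma adjusted p = 0.00294). It passed in all 21 alternatives, with log2 differences of 2.23 to 3.22.

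AT3G24190, an ABC1-type kinase of plastoglobules, had normalized intensities of 0.164, 0.184, 0.180 and 0.143 in ppi2 pairs, against 0.349, 0.700, 0.212 and 0.179 in WT pairs. It was higher in WT pairs 1 and 2, while WT pairs 3 and 4 came close to ppi2 or within its range (-0.90, 95% interval -1.92 to 0.12, limma adjusted p = 0.168). Against WT pairs 1 and 2 alone the log2 difference was -1.57. That split was chosen after seeing the data and keeps only the high WT pairs of this gene, so it gives no test. AT3G24190 passed in a fit of all samples with pairs entered as random blocks (limma adjusted p = 0.0463) and with samples not averaged. AT4G13200, a plastoglobule protein of unknown activity, differed by 0.41 (95% interval -0.71 to 1.53), and AT1G32220 was at the floor in all 16 samples.

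The genes for the lipids that plastoglobules hold were sparsely covered. Of 12 genes of tocopherol and prenylquinone synthesis 2 were measured, and 1 passed. AT1G74470, the geranylgeranyl reductase that supplies the phytol chain of chlorophyll and tocopherol, averaged 4.41 in ppi2 and 2.47 in WT (0.84 ± 0.19 SE, limma adjusted p = 0.0165). It did not pass in the deposited values (1.38, limma adjusted p = 0.0689). Against WT pairs 1 and 2 alone the log2 difference was 0.69, in a split chosen after seeing the data that gives no test. AT1G78620, the phytyl phosphate kinase that recycles phytol for tocopherol, differed by 0.34 (95% interval -0.08 to 0.77, limma adjusted p = 0.203). The only measured gene of 14 for carotenoid synthesis, the zeta-carotene isomerase Z-ISO (AT1G10830), differed by 0.11 (95% interval -0.69 to 0.90). Of 17 genes for thylakoid lipids and membrane formation 2 were measured. FATB (AT1G08510), which releases saturated fatty acids from their carrier, was higher in ppi2 (1.72 ± 0.23 SE, limma adjusted p = 0.00231), with 7 of 8 WT samples at the floor. That size moved with the floor, being 0.18 when the floor was raised to the 25th percentile and 3.11 when it was lowered to the 1st. FZL (AT1G03160), a dynamin-like protein of thylakoid and envelope membranes, differed by -0.22 (95% interval -1.31 to 0.86). None of the 17 genes of jasmonate synthesis and response, and none of the 6 root and seed markers, had a probe of its own, so the tissue could not be checked.

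**Figure D3:**
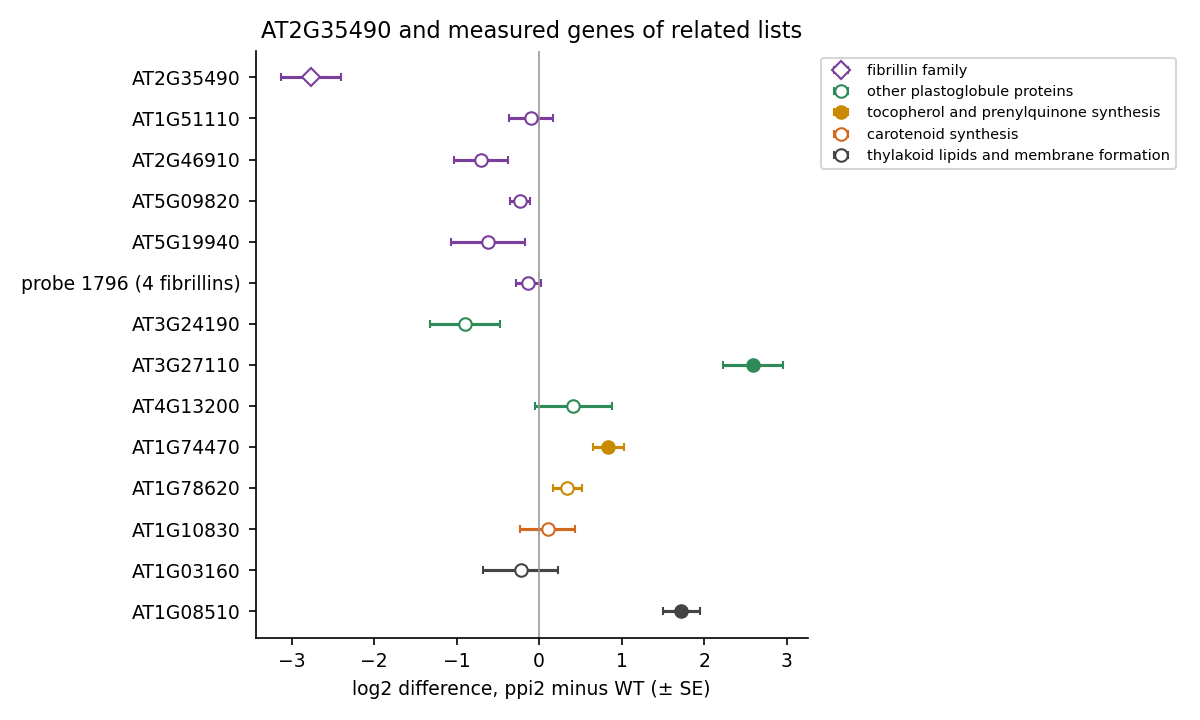
Log2 differences, ppi2 minus WT, with their SE, for AT2G35490 (diamond, no test) and the genes of related lists that were above the floor in at least 1 sample. Filled circles passed the limma test and open circles did not; AT3G27110 at 2.59 is the farthest point on the positive side, opposite AT2G35490 at -2.77, and the other fibrillins lie between -0.70 and -0.10.

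The genes with the pattern closest to that of AT2G35490 were found by Pearson correlation of normalized log2 values over the 16 samples, among 393 named genes with no value at the floor. All points share the genotype difference and the scaling, so the correlations are descriptions. The 8 closest genes had r between 0.967 and 0.981. Of the 393 genes, 24 had an r of at least 0.9 and 29 had an r of -0.9 or lower. The first was PSAN (AT5G64040), a lumenal subunit of photosystem I, with r = 0.981. Its normalized intensity was 0.481, 0.527, 0.641 and 0.876 in ppi2 pairs, against 1.97, 2.66, 5.63 and 8.40 in WT pairs. LHCB1.5 (AT2G34420), a chlorophyll-binding antenna protein of photosystem II, had r = 0.979. It was at 1.51, 2.22, 1.66 and 2.16 in ppi2 pairs, against 11.2, 17.1, 18.4 and 23.4 in WT pairs. LPA19 (AT1G05385), a Psb27 homologue named for low accumulation of photosystem II, had r = 0.970. Its values were 0.0866, 0.170, 0.121 and 0.230 in ppi2 pairs and 0.545, 0.595, 1.38 and 1.57 in WT pairs. In these 3 genes WT pairs 3 and 4 stood above WT pairs 1 and 2, as in AT2G35490. Over the 21 alternatives their log2 differences ranged between -3.49 and -1.90 for PSAN, between -3.59 and -2.90 for LHCB1.5 and between -3.37 and -1.87 for LPA19.

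The other 5 were AT5G53920 (r = 0.980), AT5G50350 (r = 0.977), AT4G00170 (r = 0.972), AT1G54500 (r = 0.968) and AT1G21730 (r = 0.967), which the RefSeq table leaves without a symbol. All 8 passed the limma test with lower levels in ppi2, a direction that the search for likeness itself favours. Their log2 differences ran from -3.19 for LHCB1.5 to -1.15 for AT1G54500. AT1G54500 was the exception under other processing, with -0.25 in the deposited values (limma adjusted p = 0.52). Of the 8 genes, 5 were also among the closest 8 by Spearman correlation and 5 in the deposited values.

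**Figure D4:**
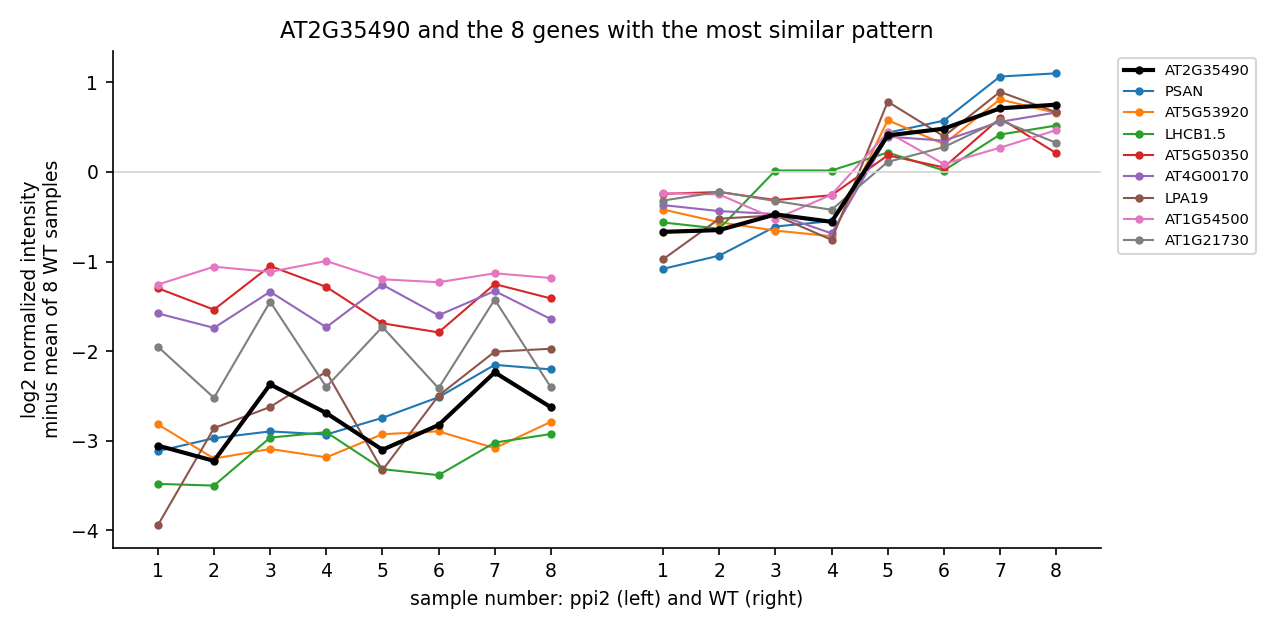
Each line is 1 gene over the 8 ppi2 and 8 WT samples, as log2 normalized intensity minus the mean of the WT samples; lines only join the points of a gene. AT2G35490 (black) and the 8 genes all lie lower in ppi2, by 1.15 to 3.19 on average, and all have WT samples 5 to 8 above WT samples 1 to 4 on average.

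With the mean of each genotype taken out, so that only the spread within ppi2 and within WT counts, the closest genes were PSAN (r = 0.907), IQD32 (AT1G19870, r = 0.899), an IQ-domain protein, and AT4G00170 (r = 0.863). In the deposited values these correlations were 0.33 for PSAN, -0.01 for IQD32 and 0.63 for AT4G00170. All 8 genes closest in the whole pattern had WT pairs 3 and 4 above WT pairs 1 and 2 after normalization, and 4 of the 8 did in the deposited values. Among these 8, the correlation within genotypes was 0.83 after normalization and 0.78 as deposited for LHCB1.5, and 0.81 and 0.75 for AT5G50350. For AT5G53920 it was 0.80 and 0.17. How far the likeness within genotypes held in the deposited values thus varied from gene to gene.

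The other plastid genes that the RefSeq names identify went in both directions. By the words plastid, chloroplast, thylakoid, photosystem or chlorophyll in their names 5 genes were found, of which 1 was called higher, 2 lower and 2 neither way, with a median difference of -0.51. Over the 691 genes 15.9% were called higher and 12.2% lower, and the median difference was 0. LHCB1.5 fell (-3.19 ± 0.25 SE, limma adjusted p = 0.000311). PIFI (AT3G15840), named for its part in the rise of chlorophyll fluorescence after illumination, averaged 0.157 in ppi2 and 0.461 in WT (-1.55 ± 0.27, limma adjusted p = 0.00711). In the deposited values it did not pass (-0.84, limma adjusted p = 0.252). The gene for the photosystem II subunit W, PSBW (AT2G30570), was higher in ppi2 (2.50 ± 0.43, limma adjusted p = 0.00717) but did not pass after median centring (1.73, limma adjusted p = 0.0705). Its deposited ppi2 values ran from 46.6 to 100, the top of the scale. After normalization ppi2 pairs 2 and 3 had the same value of 79.8. The part of these limits in its small ppi2 spread was not tested. PSBY (AT1G67740), another photosystem II protein, differed by 0.17 (95% interval -0.80 to 1.14), and the chloroplastic lipocalin CHL (AT3G47860) by -0.51 (95% interval -1.46 to 0.44). The 3 of these genes that belong to photosystems or their antenna comprised 1 rise, 1 fall and 1 that did not pass. The search by name was incomplete. It missed PSAN and LPA19, which were called lower in ppi2, and AT1G74470, which was called higher. No share of rises or falls among all plastid or photosystem genes can therefore be read from it.

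The nearest measured neighbour of AT2G35490 on the chromosome, AT2G35450, lies 4 protein-coding genes before it in the RefSeq order. It rose, at 0.509 in ppi2 and 0.212 in WT (1.26 ± 0.29 SE, limma adjusted p = 0.0202). The call was lost without ppi2 pair 3 or without ppi2 pair 4 (limma adjusted p = 0.0548 and 0.0549). Against WT pairs 3 and 4 alone the log2 difference was 0.86. That fit keeps fewer WT pairs, chosen after seeing the data, so it gives no test. On the other side the nearest measured gene, AT2G36480, is 111 genes away. Its ppi2 pairs were at 1.44 to 2.35, against 1.03, 2.91, 0.047 and 0.05 in WT pairs 1 to 4, and it did not pass (2.66, limma adjusted p = 0.224). When only WT pairs 3 and 4 were kept, the log2 difference of AT2G36480 was 5.23. When only WT pairs 1 and 2 were kept, it was 0.076. This division of the WT pairs was made after their values were seen. It parts the low WT pairs of this gene from the high ones, so neither value is a test. AT2G36480 passed when samples were not averaged, without and with the sample number as a block (limma adjusted p = 0.0369 and 0.0398).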

How the data were processed

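The authors' deposited table gives 1 intensity per probe and sample, treated here as linear, with a maximum of 100 in every sample. Array scanning, background correction and scaling are not given in the sources used here. Exact zeros made up 13.0% to 16.6% of a sample. Per the platform annotation, 692 probes list 1 gene, 870 several and 1877 none; 690 of the first kind matched RefSeq (TAIR10.1), which was used for names and gene order only. All 16 columns were mapped, and 0 were left over. Arrays carry no depth, so their number limits the precision.

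Sample medians over probes above 0 spanned 1.70 on the log2 scale, over the preset limit of 0.2, so values were quantile-normalized, set to a floor at the 5th percentile of positive values (0.0338, or -4.89 in log2) and put on the log2 scale. Among the samples of its own genotype, each sample correlated best with its partner (r of at least 0.902), so partners were averaged. limma 3.58.1 in R 4.3.3 (lmFit, eBayes without trend) was fitted over 3439 probes with Benjamini-Hochberg adjustment and a threshold of 0.05. The fit was tested on simulated data. AT2G35490 was given no p.

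The gene and the lists were chosen with earlier results of these data known. Named genes were AT2G35490, measured list members, photosystem and antenna genes, the 8 most alike and the 3 most alike within genotypes, the nearest measured neighbours, and plastid-named genes past the threshold; CHL (AT3G47860) and the shared probes were added after their values were seen. Alternatives covered scaling, floor, zeros, replicates, blocks and left-out pairs.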

Additional observations from a re-analysis of the deposited data

Results flagged for a closer look

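In 2 of the 58 sets of 4 pairs examined for the 29 named genes, 1 pair stood far from the other 3, where a rate of 1 in 20 would give 2.9. For PSBW (AT2G30570) it was WT pair 1, whose log2 level of 2.50 lay under the 4.13 to 4.37 of WT pairs 2 to 4. For FATB (AT1G08510) it was WT pair 2 at -3.995, since WT pairs 1, 3 and 4 were all at the floor of -4.89, and with 3 equal values any other value stands out. AT2G35490 itself had no such pair in ppi2 or in WT.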

How the results depend on the processing

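AT2G35490 was lower in ppi2 in all 21 alternatives. Its log2 difference of -2.77 was -1.99 in the values as deposited, -2.18 with WT pairs 1 and 2 as the only WT samples and -3.35 with WT pairs 3 and 4 (both chosen after seeing the data), and -2.99 to -2.52 when a pair was left out; the causes were not tested. Of 3439 probes 984 passed, 686 to 1087 without 1 pair, 1616 when samples were not averaged and 1719 with the sample number as a replicate block. For the 691 genes the count was 194, with 137 to 221 without 1 pair, 333 and 357 in those 2 fits, and 293 against WT pairs 3 and 4 alone. Of the 13 list members 3 passed, 3 when any pair was left out and 5 when samples were not averaged. Of the plastid-named genes 3 and of the photosystem and antenna genes 2 passed when any pair was left out, and 1 of the photosystem and antenna genes after median centring. Of the 8 most alike genes 5 were shared by Spearman, 5 in the values as deposited and 3 within genotypes. In the deposited values 647 probes were higher and 235 lower, against 488 and 496 as reported. With the pair number as a replicate block 846 probes passed and AT2G35490 stayed at -2.77. Pairs of 1 number correlated across genotypes at 0.38, 0.31, 0.03 and 0.33 in their deviations, and each ppi2 pair matched its own number best. WT and ppi2 samples of equal number also follow each other in the order of the series. Both are hints of matched replicates. The labels state no pairing, so the main fit did not treat them as paired, and its p-values do not use such a match. Only differences that had not passed changed sign, and none passed after it. In the values as deposited these were AT2G46910 (0.16), AT1G51110 (0.24), AT5G19940 (0.11), AT5G09820 (0.27) and probe 1796 (0.83). After median centring they were Z-ISO (AT1G10830, -0.22) and probe 1796 (0.14), after cyclic loess AT1G51110 (0.27), with the higher floor Z-ISO (-0.18) and with the lower one FZL (AT1G03160, 0.061). With WT pairs 1 and 2 they were probe 1796 (0.027), AT1G19870 (0.34) and AT1G51110 (0.17), and with WT pairs 3 and 4 AT3G47860 (0.038) and AT1G67740 (-0.16). Leaving out 1 pair gave -0.47 to 0.17 for FZL, -0.028 to 0.66 for AT4G13200, -0.11 to 0.37 for Z-ISO, -0.11 to 0.53 for AT1G67740 and -0.30 to 0.065 for AT1G51110. Dim probes and exact zeros limit the low end of the scale.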
